A study of Mus musculus with 6 samples.

Results

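MiR-143 and miR-145 were followed as both arms of each hairpin, which made 4 of the 778 mature miRNA rows of a mouse small RNA table: mmu-miR-143-3p, mmu-miR-143-5p, mmu-miR-145-5p and mmu-miR-145-3p, in which mmu stands for mouse and is left out from here on. The rows were chosen by hairpin name and not by how they moved. The cells were mouse primary mesangial cells of passages 3 to 6, and every group was grown in 25.5 mM glucose with 20% fetal bovine serum, so the controls carried high glucose too. Control cells had no added cytokine and made 3 libraries. TGF-b1 cells received 10 ng/ml of transforming growth factor-β1 (TGF-β1) for 72 h and made 3 libraries. The labels give no mouse strain, age or number of animals, and do not say that the replicates were separate cultures, so p-values measure only the spread between these libraries.

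In the GENCODE vM1 annotation of the NCBIM37 mouse genome (mm9, the build that the study named for its RNA reads), Mir143 spans 61808850 to 61808912 of chromosome 18 on the minus strand. Mir145 spans 61807470 to 61807557 on the same strand, 1292 bases from Mir143. Neither hairpin overlapped another annotated gene, and the nearest was the lincRNA Gm16908, 1715 bases from Mir143 on the same strand.

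Mesangial cells are contractile support cells of the kidney glomerulus and resemble vascular smooth muscle. In smooth muscle, miR-143 and miR-145 are cut from a common primary transcript that the factors SRF and myocardin switch on, and both are known as marks of the contractile state. MiR-145 represses Klf4 and Klf5, factors that hold smooth muscle in a proliferating, synthetic state, and miR-143 represses Elk1, which competes with myocardin. Each hairpin is cut into a 5p and a 3p arm. Usually the guide arm is kept in the silencing complex and the passenger arm is degraded.

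For comparison, 14 other miRNAs linked to smooth muscle phenotype were listed, and 12 of their names matched a mature sequence in RefSeq (GRCm38.p6). The 5 printed are a pair that share a seed, a pair that were lower after TGF-β1, and the most abundant miRNA on the contractile side of the list. Bases 2 to 8, the seed that pairs with target mRNAs, are in capitals.
miR-221-3p (chrX:19146307-19146329, minus strand): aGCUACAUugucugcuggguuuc
miR-222-3p (chrX:19146901-19146923, minus strand): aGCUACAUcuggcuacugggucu
miR-25-3p (chr5:138165332-138165353, minus strand): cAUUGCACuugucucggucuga
miR-26a-5p (chr9:119031811-119031832, plus strand): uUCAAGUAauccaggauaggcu
miR-206-3p (chr1:20679055-20679076, plus strand): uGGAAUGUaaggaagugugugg
MiR-26a-5p is also encoded at a further locus, since it had 2 entries in that table. MiR-221-3p and miR-222-3p carry the same seed and differ after it.

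Levels are given as RPM, where the reads of each row were divided by the library total and multiplied by 1000000, and length was not taken into account. Library totals lay between 16478281 and 20169254 reads, so that 1 read was worth 0.0496 to 0.0607 RPM. Of the total, 79.5% to 79.8% lay in the listed rows in Control, against 71.6% to 73.1% after TGF-β1. Over the 408 miRNAs tested, the median log2 change was -0.17 on library totals and -0.03 with TMM scaling, and the log2 changes given here can be read against that shift. Of those 408, 4.41% were higher and 7.84% lower (12.3% in all) past both thresholds, which were a limma adjusted p below 0.05 and a log2 change beyond 1 in either direction. With TMM scaling these shares were 7.6% and 5.39%. At any fold change 17.4% were higher and 31.9% lower on library totals, 49.3% in all. Control and TGF-b1 libraries were fully separate for 56.9% of the 408.

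All 4 rows passed the filter on low values and were measured in every library, with 123 reads or more. After TGF-β1, miR-145-5p was higher, miR-143-5p was lower, and miR-143-3p and miR-145-3p did not pass the test on library totals. Against the shares above, 1 of the 4 was higher and 1 lower at any fold change, and 0 were higher and 1 lower past both thresholds (limma). The count of 0 is for library totals: 2 of the 4 had an unadjusted p under 0.05, 1 of them higher, beside 55.9% and 19.1% of the 408. By edgeR with TMM and by DESeq2 1 of the 4 was higher past both thresholds, beside 11.0% and 11.3% of the 408. At any fold change, 2 of the 4 were higher and 1 lower with TMM scaling, by edgeR with TMM and by DESeq2. The shares of the 408 were 24.0%, 20.8% and 18.4% higher and 23.0%, 24.8% and 17.6% lower.

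**Figure D1:**
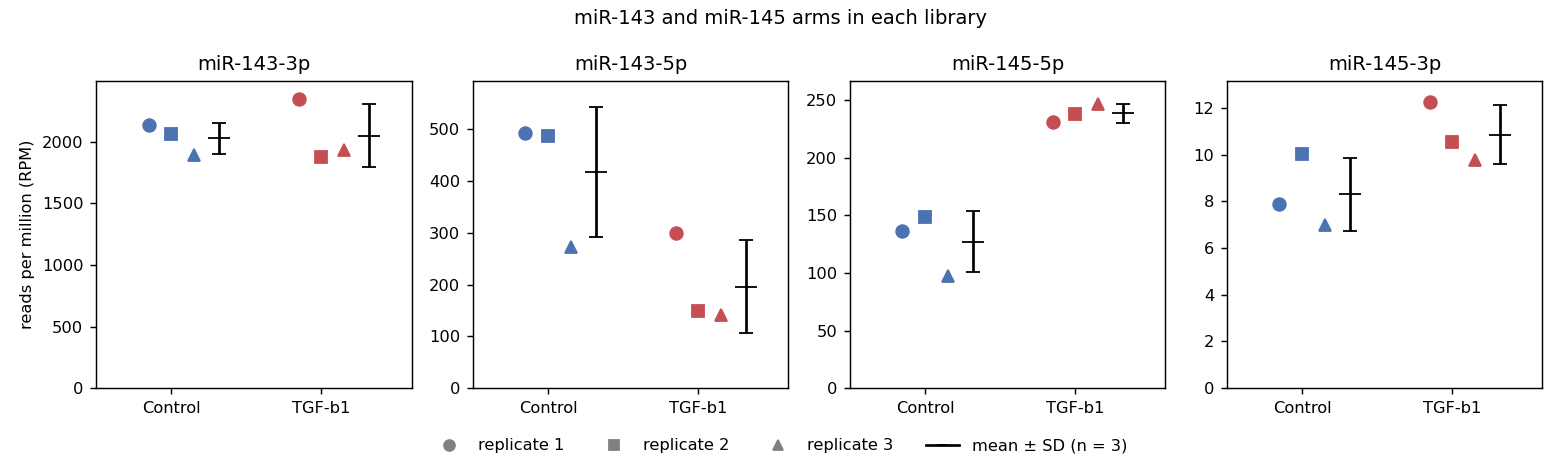
Level of each arm in RPM (vertical axis, from 0, a separate scale per panel) in the 3 Control and 3 TGF-b1 libraries; symbols are replicates and bars are mean ± SD. MiR-145-5p lies at 97.3 to 148 RPM in Control and at 231 to 247 RPM in TGF-b1, while the miR-143-5p libraries overlap.

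MiR-143-3p, the guide arm of miR-143, was the most abundant member and ranked 25 among the 778 rows by mean RPM. It had 2135, 2062 and 1892 RPM in Control replicates 1 to 3. In TGF-b1 replicates 1 to 3 it had 2348, 1874 and 1934 RPM. The groups overlapped, with the highest and the lowest value both in TGF-b1. The means were 2029 ± 125 RPM in Control and 2052 ± 258 RPM in the TGF-b1 libraries (SD over n = 3). The log2 change of 0.01 ± 0.10 (SE) had a 95% interval of -0.22 to 0.24 and a limma adjusted p of 0.945. With TMM scaling the log2 change was 0.22 (0.03 to 0.42) and the limma adjusted p 0.0597. In the order of mean levels, the ranges of miR-107-3p and miR-191-5p just above it and of miR-101b-3p just below it overlapped its own.

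MiR-143-5p, the passenger arm of the same hairpin, was lower after TGF-β1. It had 493, 486 and 272 RPM in Control replicates 1 to 3 and 299, 148 and 141 RPM in TGF-b1 replicates 1 to 3. The groups overlapped, because Control replicate 3 lay below TGF-b1 replicate 1. The means were 417 ± 126 RPM in Control and 196 ± 89.0 RPM in the TGF-b1 libraries (SD over n = 3), so the TGF-b1 mean was 0.470 of the Control mean. The log2 change was -1.12 ± 0.33 (SE, 95% interval -1.89 to -0.36) with a limma adjusted p of 0.0229. With TMM scaling it was -0.91, short of the fold threshold, with a limma adjusted p of 0.0257.

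The call of miR-143-5p depended on single libraries. It lost its adjusted p when any of Control replicates 1 and 2 or TGF-b1 replicates 2 and 3 was left out, with log2 changes of -0.99 to -0.93 and limma adjusted p-values of 0.0685 to 0.0959. Without Control replicate 3 the log2 change was -1.41 (limma adjusted p = 0.0056), and without TGF-b1 replicate 1 it was -1.47 (limma adjusted p = 0.00212). These libraries were set beside the less abundant arms of 84 hairpins in which each arm averaged 1 RPM or more. Control replicate 3 lay below the mean of the other Control libraries in 70 of the 84, with a median log2 difference of -0.20. For miR-143-5p that difference was -0.85, rank 4 from the lowest. TGF-b1 replicate 1 had a median of 0.04 over the same arms, and miR-143-5p, at 1.04, was the highest of the 84.

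MiR-145-5p, the guide arm of miR-145, rose after TGF-β1. It had 137, 148 and 97.3 RPM in Control replicates 1 to 3 and 231, 238 and 247 RPM in TGF-b1 replicates 1 to 3. All TGF-b1 libraries lay above all Control libraries. The means were 127 ± 26.7 RPM in Control and 239 ± 7.91 RPM in the TGF-b1 libraries (SD over n = 3), a ratio of 1.87. The log2 change was 0.92 ± 0.16 (SE, 95% interval 0.56 to 1.29) with a limma adjusted p of 0.00235. This is under the log2 change threshold of 1, which it passed with TMM scaling at 1.13 (limma adjusted p = 0.000129). The adjusted p stayed under 0.05 in all 19 alternatives, of which the lowest log2 change, 0.74, came without Control replicate 3. In that library the more abundant arms of the 84 hairpins lay at a median log2 difference of -0.10 from the other Control libraries, and miR-145-5p lay at -0.54, rank 6 from the lowest.

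MiR-145-3p, the passenger arm of miR-145, was the least abundant member, with rank 183. It had 7.89, 10.0 and 6.98 RPM in Control replicates 1 to 3 and 12.2, 10.6 and 9.77 RPM in TGF-b1 replicates 1 to 3. The groups overlapped in Control replicate 2 and TGF-b1 replicate 3. The means were 8.29 ± 1.56 and 10.9 ± 1.26 RPM (SD over n = 3). The log2 change of 0.36 ± 0.17 (SE, 95% interval -0.02 to 0.74) had a limma adjusted p of 0.11, and with TMM scaling it was 0.55 with a limma adjusted p of 0.0154. Values near 8 RPM are pulled toward 0 on the log2(RPM + 1) scale, so this scale understates the change.

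Summed over both arms, miR-143 had 2447 ± 248 RPM in Control and 2248 ± 346 RPM in TGF-b1, and the groups overlapped. MiR-145 had 136 ± 28.1 RPM in Control and 249 ± 6.69 RPM in the TGF-b1 libraries (SD over n = 3), and the groups did not overlap. MiR-143 took 0.307% of the listed reads in Control and 0.311% in TGF-b1, and miR-145 took 0.0170% and 0.0345%.

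Ratios between members do not depend on the scaling of the libraries. The ratio of miR-143-3p to miR-145-5p, the guide arms, was 15.6, 13.9 and 19.5 in Control replicates 1 to 3. It was 10.2, 7.86 and 7.84 in TGF-b1 replicates 1 to 3. Every TGF-b1 library lay below every Control library. MiR-145-5p alone also separated the groups, as did 56.9% of the 408 single miRNAs. The share of such separation over other pairs of miRNAs was not computed. The ratio of the guide arms averaged 16.3 ± 2.84 over the Control and 8.62 ± 1.34 over the TGF-b1 libraries (SD over n = 3). On the log2(RPM + 1) scale the ratio fell by 0.91, with a p of 0.1 in the exact permutation test (two-sided). No smaller p is possible with 3 libraries against 3. With both arms of each hairpin summed, it averaged 18.3 ± 2.34 over the Control and 9.03 ± 1.61 over the TGF-b1 libraries (SD over n = 3). The ratio of the passenger arms, miR-143-5p to miR-145-3p, was 39.0 to 62.5 in Control and 14.1 to 24.4 in TGF-b1, and these did not overlap either.

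**Figure D2:**
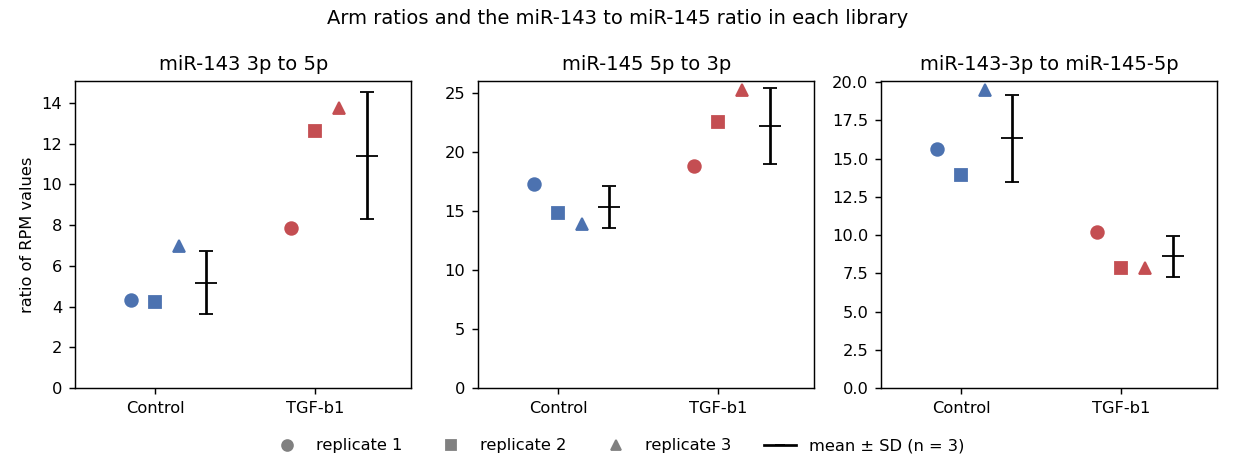
Ratios of RPM values (vertical axes, from 0) in the 3 Control and 3 TGF-b1 libraries; symbols are replicates and bars are mean ± SD. The miR-143 3p to 5p ratio is 4.24 to 6.96 in Control and 7.86 to 13.7 in TGF-b1, and the miR-143-3p to miR-145-5p ratio is 13.9 to 19.5 and 7.84 to 10.2.

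The arms of miR-143 moved apart. The 3p to 5p ratio was 4.33, 4.24 and 6.96 in Control replicates 1 to 3 and 7.86, 12.6 and 13.7 in TGF-b1 replicates 1 to 3. The groups did not overlap in this ratio, although Control replicate 3 and TGF-b1 replicate 1 lay close together, and the groups were separate in the arm ratio of 41.7% of the 84 hairpins. The mean went from 5.18 ± 1.55 to 11.4 ± 3.12 (SD over n = 3). In limma over the 84 hairpins, the log2 ratio rose by 1.13 ± 0.27 (SE, 95% interval 0.54 to 1.73), with an adjusted p of 0.0127. Without Control replicate 1 the adjusted p was 0.0719, and without TGF-b1 replicate 2 it was 0.0798, with changes of 1.02 and 1.04.

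Across the 84 hairpins, 4.76% had a higher and 21.4% a lower 3p to 5p ratio by limma (adjusted p below 0.05), which is 26.2% in all. MiR-143 had the highest signed change of the 84 on this scale. It was not the largest in size, since miR-27b changed by -1.23. The other hairpins with a higher ratio were miR-127, miR-532 and miR-361, named after their values were seen, at 0.97, 0.84 and 0.76. The hairpins whose mean arm ratio was nearest to that of miR-143 were miR-27b and miR-342. The 3p to 5p ratio of miR-27b went the other way, from 7.92 ± 0.413 to 3.45 ± 0.929 (SD over n = 3), by -1.23 on the log2 scale (limma adjusted p = 0.00517). That of miR-342 went from 5.68 ± 1.67 to 10.3 ± 6.37, by 0.70 (limma adjusted p = 0.157).

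The change in the arm ratio of miR-145 did not pass the test. The 5p to 3p ratio was 17.3, 14.8 and 13.9 in Control replicates 1 to 3 and 18.8, 22.6 and 25.2 in TGF-b1 replicates 1 to 3. The groups did not overlap. The mean went from 15.4 ± 1.75 to 22.2 ± 3.21 (SD over n = 3). As a log2 ratio of 3p to 5p the change was -0.56 ± 0.22 (SE, 95% interval -1.03 to -0.10), with a limma adjusted p of 0.0694. Without TGF-b1 replicate 1 it was -0.67 with a limma adjusted p of 0.0384. With any other library left out the limma adjusted p was 0.127 to 0.236. In all, the change passed in 2 of 9 alternatives. The nearest hairpins in arm ratio, miR-99b and miR-186, had changes of -0.35 and -0.31 with limma adjusted p-values of 0.305 and 0.343. The ratio of the more to the less abundant arm was higher in every TGF-b1 library than in every Control library for 19.0% of the 84 hairpins, and for both hairpins of the cluster. This count was not among the planned tests and is a description. On the planned 3p to 5p scale the 2 hairpins changed in opposite directions, 1.13 for miR-143 and -0.56 for miR-145.

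**Figure D3:**
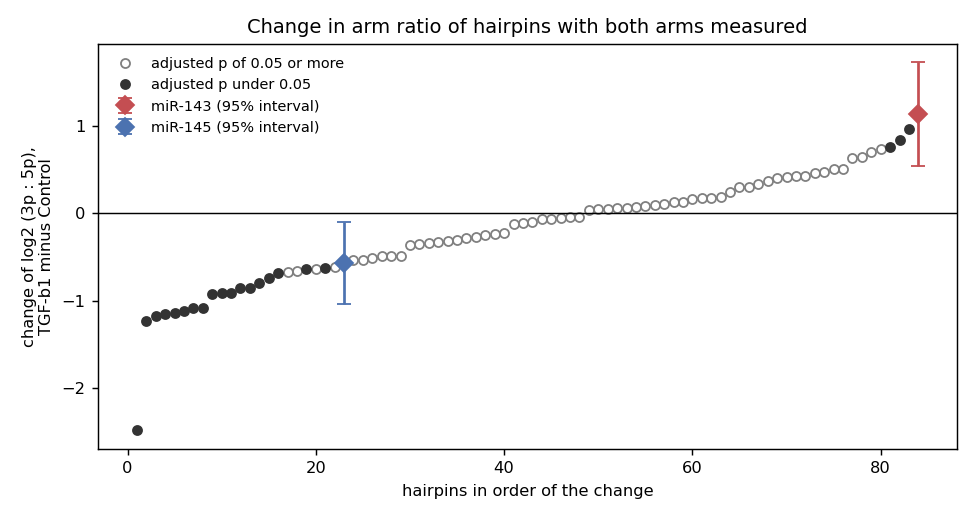
Change of the log2 3p to 5p ratio (vertical axis, TGF-b1 minus Control) of 84 hairpins in order of the change (horizontal axis); filled circles have a limma adjusted p under 0.05, diamonds are miR-143 and miR-145, and bars on the diamonds are 95% intervals. MiR-143 stands at 1.13, the highest signed value of the 84, and miR-145 at -0.56.

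The list of smooth muscle miRNAs held 7 linked to the contractile state and 7 linked to the synthetic state, and 11 of the 14 passed the filter. On library totals, 5 of the 11 were lower at any fold change and 0 higher, beside 31.9% and 17.4% of all miRNAs tested. The median log2 change of the 11 was -0.11, against -0.17 over all 408. At an unadjusted p under 0.05, 6 of the 11 passed, 1 of them higher, beside 55.9% and 19.1% of all. With TMM scaling 2 were lower and 3 higher, beside 23.0% and 24.0% of all. By edgeR with TMM 4 were lower and 2 higher, beside 24.8% and 20.8% of all, and by DESeq2 2 and 2, beside 17.6% and 18.4%. Past both thresholds 1 was lower and 0 higher, beside 7.84% and 4.41% of all. With TMM scaling the counts were the same, beside 5.39% and 7.6% of all. They were also the same by edgeR with TMM, beside 41 lower and 45 higher of the 408. By DESeq2 they were the same again, beside 31 lower and 46 higher.

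On the contractile side, 5 of 7 were tested. MiR-25-3p, of the miR-106b cluster, had 1388 ± 81.5 RPM in Control and 769 ± 99.8 RPM in the TGF-b1 libraries (SD over n = 3), and it fell by 0.86 on the log2 scale (limma adjusted p = 0.000522). MiR-18a-5p, of the miR-17-92 cluster, and miR-100-5p were lower on library totals, at -0.57 and -0.33, but did not pass with TMM scaling, with limma adjusted p-values of 0.0588 and 0.323. MiR-206-3p, a miRNA of skeletal muscle, had 3502 ± 114 RPM in Control and 3363 ± 90.1 RPM in the TGF-b1 libraries (SD over n = 3), more than any member. Its log2 change of -0.06 did not pass and was 0.15 with TMM scaling. Its seed relative miR-1a-3p had 9.99 ± 1.39 and 10.8 ± 0.698 RPM. The muscle miRNAs miR-133a-3p and miR-133b-3p had at most 3 reads in any library and were not tested.

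On the synthetic side, 6 of 7 were tested. MiR-26a-5p had 544 ± 38.1 RPM in Control and 195 ± 18.2 RPM in the TGF-b1 libraries (SD over n = 3), and it fell by 1.48 on the log2 scale (limma adjusted p = 4.17e-05), the only one on the list past both thresholds. MiR-222-3p, which represses the cell cycle inhibitor p27, had 12104 ± 675 and 9071 ± 529 RPM (SD over n = 3), and it changed by -0.42 on the log2 scale (limma adjusted p = 0.00139), or -0.20 with TMM scaling (limma adjusted p = 0.0628). MiR-221-3p, with the same seed, had a log2 change of -0.11 that did not pass, and of 0.10 with TMM scaling. MiR-31-5p, miR-21-5p and miR-24-3p had log2 changes of 0.25, 0.13 and 0.09 with limma adjusted p-values of 0.0845, 0.163 and 0.504. With TMM scaling these 3 passed at any fold change, at 0.47, 0.35 and 0.30. MiR-146a-5p had at most 4 reads in any library.

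**Figure D4:**
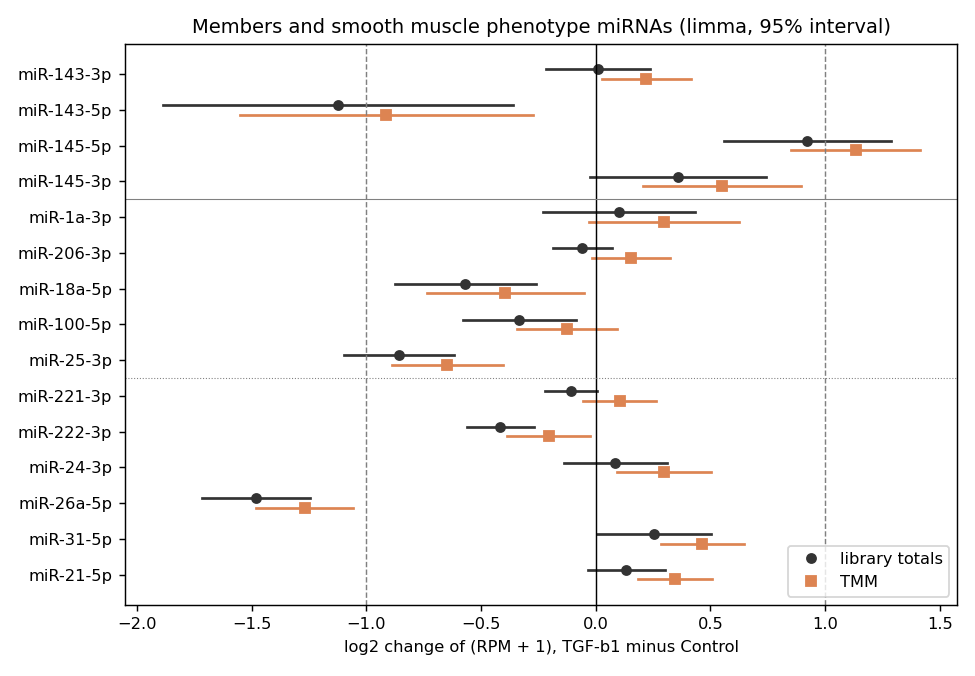
Log2 change of (RPM + 1), TGF-b1 minus Control (horizontal axis), with limma 95% intervals on library totals (circles) and with TMM scaling (squares); the solid line divides the members from the list and the dotted line its contractile from its synthetic side. MiR-145-5p lies at 0.92 and 1.13, on either side of the threshold of 1, and miR-143-5p at -1.12 and -0.91.

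The miRNAs with the pattern most like each guide arm were taken by Pearson correlation of log2(RPM + 1) over the 6 libraries, among 178 tested miRNAs with a mean of at least 10 RPM. The points share 6 library totals, and the correlations are a description. For miR-145-5p they were miR-664-5p, miR-23a-3p, miR-3102-3p, miR-365-2-5p and miR-181a-2-3p, with r from 0.96 to 0.99. All of these were higher after TGF-β1 at any fold change, with log2 changes from 0.46 to 1.03, beside 17.4% of the 408. MiR-145-5p itself separated the groups, so choice by likeness to it favours miRNAs that do the same, and their direction is no separate result. Choice by likeness to miR-143-3p, whose groups overlapped, in the same way favours miRNAs without a group difference. For miR-143-3p the closest were miR-103-3p, miR-21-5p, miR-125b-1-3p, miR-33-5p and miR-210-3p, with r from 0.67 to 0.86, and none of them passed the test on library totals (limma). Their log2 changes ran from -0.49 for miR-33-5p to 0.51 for miR-210-3p, the one with an unadjusted limma p under 0.05 (0.0349). With TMM scaling miR-103-3p, miR-21-5p, miR-125b-1-3p and miR-210-3p passed at any fold change, with limma adjusted p-values of 0.00393 to 0.0411.

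The label of the cells was set beside miRNAs used as markers of other cells. Both endothelial markers, miR-126-3p and miR-126-5p, summed to at most 0.298 RPM in a library. Of 5 blood markers 3 had rows, which summed to at most 0.6 RPM. The 5 epithelial markers of the miR-200 family summed to 22.2 to 25.4 RPM in Control and 1.67 to 2.53 RPM in TGF-b1, of which miR-200c-3p and miR-141-3p gave at most 0.112 and 0.0607 RPM. The proximal tubule markers miR-192-5p and miR-194-5p summed to 292 to 307 RPM in Control and 341 to 365 RPM in TGF-b1, nearly all of it miR-192-5p. Of 5 muscle markers 4 had rows, which summed to 3440 to 3646 RPM in Control and 3285 to 3465 RPM in TGF-b1; miR-206-3p made up 3275 RPM or more of the sum in every library. Whether these rows came from other cells or from the mesangial cells themselves was not tested. Nor was any part of other cells in the changes of miR-143 and miR-145. In RNA from a whole culture a change in the share of a cell type cannot be told apart from a change in RNA per cell.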

How the data were processed

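Small RNA of 6 libraries was sequenced on an Illumina instrument. Per the labels and the study's methods, the authors trimmed adaptors, removed low-quality reads and reads under 18 nt, and compared the rest with miRBase version 17 by Bowtie (version not given in the sources used here). The authors deposited 1 table whose header says TPM, and these deposited values are RPM, that is whole multiples of 1 read over the library total, scaled to 1000000 reads, with no scaling by length. How reads matching several miRNAs were counted is not stated; no member was among the 16 rows identical to another row with at least 20 reads.

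Library totals were recovered as integers that turn all values (100%, tolerance 0.002) into whole reads. The main test was limma 3.58.1 in R 4.3.3 (trend fitted) on log2(RPM + 1) by group, without covariates. The filter was filterByExpr in edgeR 4.0.16 (minimum count 10), which left 408 miRNAs, with Benjamini-Hochberg adjustment over all of them. A call needed an adjusted p below 0.05 and a log2 change beyond 1 in either direction, and calls at any fold change are named as such. Arm ratios were tested by limma without a trend over 84 hairpins. The ratio of guide arms was tested by an exact permutation test in scipy 1.17.1. The alternatives tried were scaling by upper quartile, by TMM, by the sum of the rows and by median of ratios, and pseudocounts of 0.1 and 10. Further ones were other filters, a log2 change threshold of 2, a replicate block, each library left out, edgeR and DESeq2 1.42.0. The fits were run on simulated reads with no change or with a planted log2 change of 2 in either direction. Changes near the threshold of 1 were not covered by that simulation. Intervals and read limits cover counting and replicate spread only: reads copied by PCR do not stand for separate molecules.

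The members, the lists and the tests were chosen with earlier results of these data known. Besides the members, the miRNAs named are those on the smooth muscle list, the 5 most like each guide arm, neighbours in mean level, the 2 hairpins nearest in arm ratio, and the cell type markers; names outside these were picked with their values in view. Samples were grouped by their treatment label. Replicate numbers were not taken as pairs, because same-numbered deviations correlated at -0.08, -0.21 and -0.34.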

Additional observations from a re-analysis of the deposited data

How the results depend on the processing

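The log2 change threshold of 1 divided the settings for both members that changed. MiR-143-5p was called at -1.12 on library totals but not at -0.81 under upper-quartile scaling, -0.91 under TMM, -0.98 under the sum of the rows, -0.92 under median of ratios, -0.92 by edgeR with TMM or -0.86 by DESeq2, and by construction not with a threshold of 2 (-1.12). MiR-145-5p, at 0.92, was called at 1.24 under upper-quartile scaling, 1.13 under TMM, 1.06 under the sum of the rows, 1.13 under median of ratios, 1.07 by edgeR with TMM, 1.14 by DESeq2 and 1.04 without Control replicate 2. In the fits that each left out 1 library, log2 changes were -1.47 to -0.93 for miR-143-5p, 0.74 to 1.04 for miR-145-5p and -0.091 to 0.072 for miR-143-3p, which was below 0 without Control replicate 3 (-0.04) or TGF-b1 replicate 1 (-0.091). MiR-145-3p kept its direction and stayed short of the call throughout, with log2 changes of 0.19 to 0.65, and passed by adjusted p alone in 6 of 19 alternatives. These 6 were all the alternatives not scaled by library totals, with adjusted p-values of 0.00953 to 0.0461 (limma, edgeR or DESeq2). The edgeR fit with library totals was added after seeing the data.

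The arm ratio change of miR-143 was 0.98 to 1.38 with a library left out, and that of miR-145 was -0.67 to -0.47. For miR-145 it was -0.68 (limma adjusted p = 0.00716) with a pseudocount of 10 and -0.53 (limma adjusted p = 0.144) with 0.1. A pseudocount of 10 is near the level of miR-145-3p itself, 6.98 to 12.2 RPM, and shrank the log2 change of that arm to 0.19. At that setting the ratio follows mostly miR-145-5p. Changed arm ratios numbered 22, against 12 where each arm had to average 10 RPM, which leaves out miR-145, 10 with the replicate block, and 4 to 21 with a library left out, lowest without TGF-b1 replicate 2, then 9 without Control replicate 1 and 13 without TGF-b1 replicate 3. The log2 ratio of miR-143-3p to miR-145-5p, -0.91, ran from -1.04 to -0.78 and moved by less than the replicate spread in all 9 alternatives. With the replicate block miR-143-5p had a limma adjusted p of 0.00584, miR-145-5p of 0.00557 and the arm ratio of miR-143 of 0.0397. No call of a member changed. The arm ratio of miR-145 had a limma adjusted p of 0.17 with that block.

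Over all miRNAs, 18 were higher and 32 lower past both thresholds. The higher numbered 35 under upper-quartile scaling, 31 under TMM, 30 under median of ratios, and 32 and 2 with pseudocounts of 0.1 and 10. They numbered 45 by edgeR with TMM, 46 by DESeq2 and 32 by edgeR with library totals. Above a log2 change of 2 there were 0 (of all 408, 78 were higher at an unadjusted limma p under 0.05). The lower numbered 19 with upper quartile, 54 and 15 with pseudocounts of 0.1 and 10, and 54 by edgeR with library totals. With a log2 change threshold of 2 the lower numbered 6. At any fold change 130 were lower, against 73 with upper quartile and 72 by DESeq2. With a library left out the counts were 15 to 21, 26 to 41 and 98 to 141. List miRNAs higher at any fold change were 0, against 3 under TMM, 2 each under upper quartile, median of ratios, the sum of the rows, edgeR and DESeq2, and 0 to 1 with a library left out. Those lower were 5, against 2 each under upper quartile, TMM, median of ratios and DESeq2.

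Of 360 alternative values of 20 other named miRNAs, 336 kept direction and side of the call and 14 changed direction. MiR-206-3p (-0.06) and miR-221-3p (-0.11) changed to 0.26 and 0.21 under upper quartile, 0.15 and 0.10 under TMM, 0.081 and 0.032 under the sum of the rows, 0.15 and 0.10 under median of ratios, 0.094 and 0.044 by edgeR with TMM, and 0.16 and 0.11 by DESeq2. MiR-103-3p (0.02) went to between -0.015 and 0.052 with a library left out. Beyond what these settings change by construction, the cause was not tested.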

Other observations

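MiR-206-3p was the most abundant of the muscle miRNAs, with 3275 to 3634 RPM over the 6 libraries, and held rank 19 of the 778 rows. MiR-133b-3p, which is encoded close to miR-206 on chromosome 1, had 0 to 3 reads in each library, and miR-1a-3p had 153 to 206. These values were noticed after the data were seen and no explanation was tested.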
